A study of Mus musculus with 18 samples.

Results

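Sorting nexins are cytosolic proteins that bind membrane phosphoinositides through a PX domain and sort receptors and other cargo out of endosomes. Transcripts of 10 sorting nexin genes, Snx1, Snx2, Snx3, Snx4, Snx5, Snx6, Snx10, Snx13, Snx14 and Snx18, were followed here in bone marrow-derived macrophages (BMDMs), out of 49315 genes counted. The 10 were chosen by name after their measured differences between groups had been seen in these same libraries, so those differences are given as a description, with no p-value for any of the 10. Where the number of the 10 past a threshold is given, it only says how they stand among all genes, and nothing is read from it. All 10 were mapped to a single Ensembl gene each and passed the filter on low counts in every comparison, and the 20 other listed sorting nexin genes served for comparison.

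Several of the 10 act together. SNX1 and SNX2 pair with SNX5 or SNX6 through their curved BAR domains and form tubules that return cargo such as the cation-independent mannose 6-phosphate receptor to the trans-Golgi network. SNX3 has a PX domain without a BAR domain and works with retromer, the VPS26, VPS29 and VPS35 complex, for example in the recycling of the Wnt carrier Wntless. SNX4 serves recycling of the transferrin receptor, SNX10 is known for its part in osteoclast bone resorption and vacuole formation, and SNX18 carries an SH3 domain and takes part in membrane remodelling. SNX13 and SNX14 belong to a separate branch with RGS and PXA domains. In a macrophage, endosomes receive what is taken up from outside, including the remains of dying cells, and endosomal sorting returns receptors to the surface.

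BMDMs came from mice with loxP-flanked Hdac3 alleles (HDAC3 f/f, called WT in the deposited labels) or from M-HDAC3-/- mice, in which Cre driven by the myeloid Lyz2 gene deletes Hdac3, a histone deacetylase, with 3 animals per group. The cells were grown in medium conditioned by L929 fibroblasts. Besides untreated BMDMs, there were BMDMs kept together for 45 min with K562 cells, a human leukaemia line. These were either non-apoptotic (NACs) or made apoptotic (ACs) by 15 min of UV-B light and a wait of 2 h, and the BMDMs were then washed and kept for 5 h before RNA isolation. The 6 groups had 3 libraries each, 18 in all.

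Total counts ran from 4704491, in HDAC3-/- untreated replicate 1, to 26421267. Gene counts of Hdac3 did not separate the genotype labels. Untreated libraries labelled HDAC3 f/f held 3.38, 44.4 and 31.9 CPM (counts relative to library size, scaled by the TMM method) and those labelled HDAC3-/- 38.7, 11.4 and 74.6. With NACs the libraries held 48.7, 44.0 and 11.6 CPM (HDAC3 f/f) and 4.66, 34.0 and 42.6 CPM (HDAC3-/-). With ACs these were 7.12, 38.3 and 29.7 CPM and 39.7, 10.1 and 17.9 CPM, so the ranges overlapped in each treatment. The lowest libraries were replicate 1 of HDAC3 f/f untreated, HDAC3-/- with NACs and HDAC3 f/f with ACs. Whether each label matches its genotype was not tested. The counts cover the whole gene, so the deleted part alone could not be read, and every direction between genotypes below is a direction between labels. Of 8 macrophage markers, all were detected in every library, with Csf1r from 1169 to 6793 CPM and Adgre1 from 133 to 1622 CPM. Lyz2 held 13789.6, 6722 and 4530.0 CPM in untreated HDAC3 f/f and 1477, 2559 and 3089 CPM in untreated HDAC3-/- libraries, without overlap, and Mrc1 did not overlap either, with means of 87.0 and 32.3 CPM. Both passed as lower by edgeR (Lyz2 −1.94 ± 0.55, adjusted p = 0.0425, Mrc1 −1.5 ± 0.42, adjusted p = 0.0415). Of the 8, 4 were lower and 4 higher in untreated HDAC3-/- libraries (median log2 fold change 0.07), with Csf1r at 1.30 ± 0.57, adjusted p = 0.119, Cd68 at 1.02 ± 0.55, adjusted p = 0.191 and Cd14, higher in all libraries, at 1.03 ± 0.46, adjusted p = 0.126 (edgeR). Lyz2 stood the other way with NACs, with means of 3981 (HDAC3 f/f) and 8927 CPM (HDAC3-/-, log2 fold change 1.20 ± 0.46, adjusted p = 0.144, edgeR), and with ACs (0.80 ± 0.46, adjusted p = 0.284, edgeR), both with overlap. The M-HDAC3-/- mice carry a Lyz2Cre allele, so Lyz2 differs between the genotypes by design and is not a marker of cell type alone here. Whether that allele changes the counts of Lyz2 was not tested. With NACs, 4 of the 8 were higher and 4 lower in HDAC3-/- libraries. Mrc1 (1.13 ± 0.36), Adgre1 (1.04 ± 0.37) and Itgam (0.87 ± 0.35) were higher in all libraries there, and Cd14 (−1.01 ± 0.38) lower in all. With ACs, 6 were higher and 2 lower, and Adgre1 (1.32 ± 0.43) was higher in all libraries. By edgeR 0 of the 8 passed with NACs or with ACs, beside 0.864% and 3.75% of all genes. The summed CPM of 8 granulocyte markers was 222 to 1267 and 408 to 1023 in untreated libraries of the HDAC3 f/f and HDAC3-/- labels, that of 5 fibroblast markers 4.31 to 91.3 and 67.6 to 102, and that of 4 B cell markers 1.46 to 4.67 and 6.17 to 14.1. With NACs these sums were 577 to 1135 and 289 to 912, 27.2 to 47.5 and 7.22 to 42.6, and 5.15 to 18.0 and 1.77 to 4.38, and with ACs 373 to 958 and 441 to 763, 7.23 to 189 and 75.6 to 222, and 2.30 to 5.82 and 3.24 to 6.28. The labels did not overlap in the B cell sum untreated and with NACs, in opposite order, and overlapped in the other sums. With ACs, 6 of the 8 granulocyte markers were lower and 2 higher in HDAC3-/- libraries (median log2 fold change −0.82). Of these, Elane passed as lower, with overlap (−2.26 ± 0.57, adjusted p = 0.0424, edgeR), beside 2.96% of all genes. Ltf was higher in all HDAC3-/- libraries untreated (1.37) and lower in all with NACs (−0.74), as was Retnlg with NACs (−1.81). Over all 18 libraries the summed CPM of 4 dendritic cell markers was 0.265 to 2.53 and that of 5 erythroid markers 0.0931 to 42.2. The part of these cell types in the results was not tested. In bulk RNA, fewer cells of a type and less RNA per cell cannot be told apart.

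The libraries also differed in how genes of low and high GC content were represented, and this went with the level of the 10 sorting nexins. The contrast used here is the median log2 deviation of genes up to the 20th GC percentile minus that of genes from the 80th, among 13662 filtered genes. It was 0.43 to 1.0 in untreated HDAC3 f/f and −1.13 to −0.37 in untreated HDAC3-/- libraries, where the mean deviation of the 10 sorting nexins was 0.42 to 0.84 and −1.15 to −0.65. With NACs the contrast was −0.76 to 0.25 and 0.33 to 0.70, beside −0.78 to 0.42 and 0.43 to 0.91 for the sorting nexins. With ACs it was −0.67 to 0.63 and −0.81 to 0.42, beside −0.28 to 0.50 and −0.66 to 0.09. The transcripts of the 10 genes had a median GC content of 43.9%, against 49.8% of all filtered genes. Those of Snx1, Snx3 and Snx18 stood at 50.3%, 53.0% and 52.1%, and the other 7 lay between 40.0% (Snx13) and 45.2% (Snx5). As an alternative, a term for transcript GC and length was fitted library by library and taken out (the GC-length offset).

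Further library measures moved with the same groups. The share of counts from mitochondrial genes was 0.496 to 0.621% in untreated HDAC3 f/f and 0.272 to 0.434% in untreated HDAC3-/- libraries, without overlap. With NACs it was 0.294 to 0.404% and 0.409 to 0.577%, in the opposite order and again without overlap, and with ACs 0.341 to 0.480% and 0.493 to 1.19%. The contrast of long against short genes, made like that of GC content, was −0.06 to 0.45 and −0.37 to −0.26 untreated, −0.58 to −0.20 and 0.01 to 0.27 with NACs, and −0.07 to 0.15 and 0.08 to 0.63 with ACs. The labels did not overlap in it untreated or with NACs. The part of the mitochondrial share in the results was not tested.

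**Figure D1:**
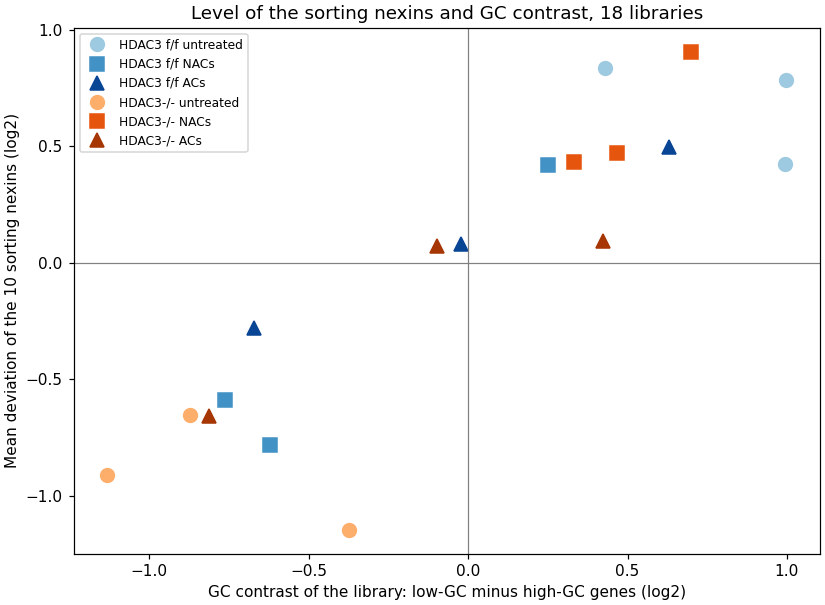
Mean log2 deviation of the 10 sorting nexins (vertical axis) against the GC contrast of the library (low-GC minus high-GC genes, log2, horizontal axis), one point per library, coloured and shaped by group. The 3 untreated HDAC3 f/f libraries and the 3 HDAC3-/- libraries with NACs lie at the upper right, and the 3 untreated HDAC3-/- libraries at the lower left. The upper right also holds HDAC3 f/f ACs replicate 1, HDAC3 f/f NACs replicate 2 and, at 0.09 vertically, HDAC3-/- ACs replicate 2. The lower left also holds HDAC3 f/f NACs replicates 1 and 3, HDAC3 f/f ACs replicate 2 and HDAC3-/- ACs replicate 3.

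Promoter sequence was available for 9 of the 10 genes, in 11 windows of 300 bases (250 before and 50 after the annotated start) from RefSeq on GRCm38.p6, and Snx2 had no entry. The 250 bases before the start are shown for Snx5 and Snx6, the pair whose levels followed each other most closely over the libraries, for Snx10, whose level fell and rose with that of Snx2, and for Snx3, whose level stood apart. Capitals mark a match, on either strand, to the E-box CACGTG, the CCAAT box as CCAAT, the TATA box as TATAAA, the AP-1 site TGACTCA, the PU.1 core GAGGAAGT or the ETS core CCGGAAGT. The window of Snx5 is chr2:144270573-144270822, minus strand, that of Snx6 chr12:54795663-54795912, minus strand, that of Snx10 chr6:51523834-51524083, plus strand, and that of Snx3 chr10:42501804-42502053, plus strand.
Snx5: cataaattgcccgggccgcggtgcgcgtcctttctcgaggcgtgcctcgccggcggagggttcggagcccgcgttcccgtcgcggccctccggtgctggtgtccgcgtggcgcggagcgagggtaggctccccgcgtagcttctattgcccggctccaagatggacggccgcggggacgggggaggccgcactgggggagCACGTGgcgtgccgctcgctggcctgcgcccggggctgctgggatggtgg
Snx6: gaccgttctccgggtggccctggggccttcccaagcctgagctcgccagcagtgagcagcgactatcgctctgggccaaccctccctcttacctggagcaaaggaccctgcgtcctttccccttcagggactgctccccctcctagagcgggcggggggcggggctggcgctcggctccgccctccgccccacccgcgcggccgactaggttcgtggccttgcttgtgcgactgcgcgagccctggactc
Snx10: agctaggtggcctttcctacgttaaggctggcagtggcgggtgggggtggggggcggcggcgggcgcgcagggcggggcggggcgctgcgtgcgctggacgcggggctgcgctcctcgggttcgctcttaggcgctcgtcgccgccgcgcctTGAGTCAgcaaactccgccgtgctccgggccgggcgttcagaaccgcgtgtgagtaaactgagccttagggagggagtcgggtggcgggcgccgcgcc
Snx3: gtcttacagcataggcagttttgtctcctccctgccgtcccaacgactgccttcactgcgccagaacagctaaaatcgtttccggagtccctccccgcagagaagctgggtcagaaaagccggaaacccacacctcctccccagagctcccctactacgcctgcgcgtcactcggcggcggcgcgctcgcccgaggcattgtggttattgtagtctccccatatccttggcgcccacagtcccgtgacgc

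The upstream bases of Snx5 held the E-box letters 50 bases before the start, and those of Snx6 and Snx3 matched none of the 6 motifs. The Snx10 window shown, 1 of 3 for this gene, held the AP-1 letters on the minus strand 98 bases before its start, and CCAAT was found in another of the 3. Over the 11 windows CACGTG was found in 2 (Snx5 and Snx18), against 7.15% of all 32851 windows of that length. CCAAT was found in 3 (Snx1, Snx10 and Snx13), against 37.4%, and TATAAA in 0, against 13.6%. TGACTCA was found in 1 (Snx10), against 5.20%, CCGGAAGT in 1 (Snx14), against 3.89%, and GAGGAAGT in 0, against 3.20%. A match is a description of the letters only.

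Per kilobase of gene length, Snx3 was the most abundant of the 10 over all libraries, at a mean of 103 ± 34.5 CPM per kb (SD, n = 18 libraries). It was followed in order of the median by Snx5 (46.5 ± 21.7), Snx2 (65.7 ± 55.2), Snx1 (33.8 ± 14.9), Snx6 (20.9 ± 10.4), Snx4 (12.9 ± 6.30) and Snx10 (11.9 ± 8.35). Snx18 stood at 4.42 ± 1.92, Snx14 at 1.78 ± 0.728 and Snx13 at 1.18 ± 0.629 CPM per kb. Neighbours from Snx5 to Snx18, and Snx14 and Snx13, had means that differed by less than the larger of their SDs, while Snx3 and Snx5, and Snx18 and Snx14, differed by more. The order differed between groups. Snx2 had the highest mean in untreated HDAC3 f/f libraries (127 ± 41.4 against 96.8 ± 6.98 for Snx3, SD, n = 3) and in HDAC3 f/f libraries with ACs (85.8 ± 73.4 against 68.9 ± 4.94), each within the SD of Snx2, and Snx3 had it in the other 4 groups. Snx3 had the narrowest range, with its highest library 3.06 times its lowest, and Snx2 the widest, at 17.7 times. Levels below are in CPM, which are not corrected for length and are compared only within a gene.

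**Figure D2:**
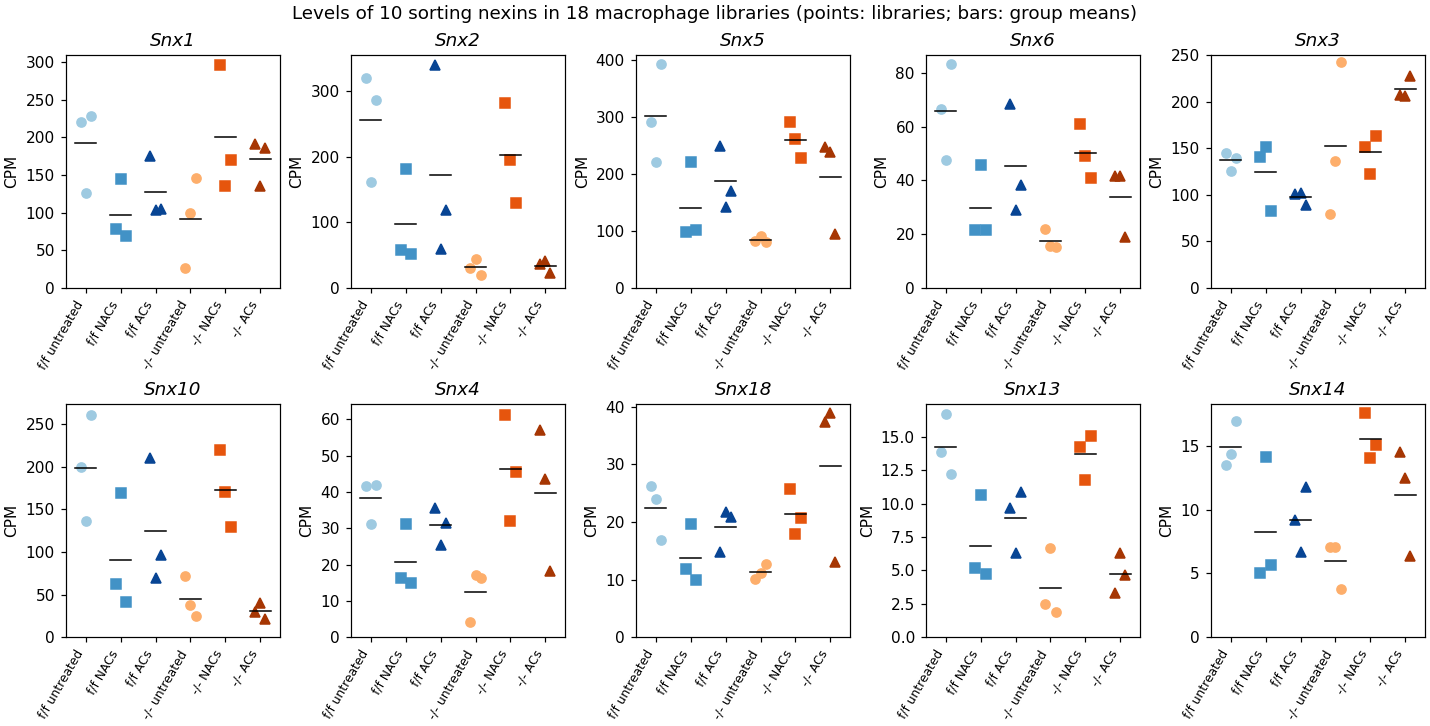
CPM (TMM-scaled, linear axis from 0) of each of the 10 sorting nexins in the 18 libraries, by genotype label and treatment. Points are libraries and black bars are group means of 3. Snx2 and Snx10 are low in both untreated and ACs-treated HDAC3-/- libraries, and Snx3 has its highest group mean in the HDAC3-/- libraries with ACs.

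Among the BAR sorting nexins that pair with each other, Snx2 (GRCm38, chromosome 18 from 53176365 to 53220860) varied most. Its untreated levels were 319.8, 162 and 287 CPM in HDAC3 f/f libraries and 30.9, 44.3 and 19.1 CPM in HDAC3-/- libraries (replicates 1 to 3). With NACs they were 57.7, 182 and 52.0 CPM in HDAC3 f/f and 282, 196 and 129 CPM in HDAC3-/-. With ACs they were 339.7, 58.8 and 119 CPM and 37.0, 40.2 and 22.4 CPM. The HDAC3-/- libraries were thus all below every HDAC3 f/f library when untreated and with ACs, whereas with NACs the ranges overlapped. Within HDAC3 f/f the spread was wide, as replicate 2 of the NACs group and replicate 1 of the ACs group stood well above the others of their group.

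Snx5 (chromosome 2 from 144250123 to 144270906), which encodes a partner of SNX1 and SNX2, held 291, 221 and 393 CPM in untreated HDAC3 f/f libraries and 82.1, 90.8 and 80.5 CPM in untreated HDAC3-/- libraries. With NACs its levels were 97.0, 221 and 101 CPM and 290.4, 260.4 and 228 CPM in the same order, so the order of the genotypes was the opposite and again without overlap. With ACs they were 249, 142 and 169 CPM and 247, 239 and 94.8 CPM, which overlapped. Snx6, the other partner, followed Snx5 closely (Pearson r = 0.97 on log2 CPM over the 18 libraries, which share their GC contrast), and lies on chromosome 12 from 54746349 to 54795703. Snx6 held 66.5, 47.7 and 83.3 CPM in untreated HDAC3 f/f and 21.9, 15.4 and 15.2 CPM in untreated HDAC3-/- libraries, without overlap. With NACs it held 21.4, 45.9 and 21.6 CPM and 60.8, 49.1 and 40.7 CPM, and with ACs 68.4, 28.9 and 38.2 CPM and 41.6, 41.5 and 18.8 CPM, both with overlap.

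Snx1 (chromosome 9 from 66088133 to 66126587), whose product can take the place of SNX2 in the dimers, varied less than Snx2 between labels. Its untreated levels were 221, 126 and 229 CPM in HDAC3 f/f and 26.6, 99.2 and 146 CPM in HDAC3-/- libraries, which overlapped through HDAC3-/- replicate 3. With NACs they were 78.2, 144 and 69.4 CPM and 296, 136 and 170.4 CPM, and with ACs 175, 103 and 104 CPM and 192, 136 and 186 CPM. The groups overlapped in all 3 conditions.

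Snx10 and Snx3, which have a PX domain and no BAR domain, went different ways. Snx10 (chromosome 6 from 51523901 to 51590679) held 199.7, 136 and 261 CPM in untreated HDAC3 f/f and 71.8, 37.5 and 25.5 CPM in untreated HDAC3-/- libraries. With NACs it held 62.7, 169 and 41.5 CPM and 219, 170.2 and 129 CPM, and with ACs 209.6, 69.6 and 95.9 CPM and 30.0, 40.6 and 20.9 CPM. As for Snx2, the HDAC3-/- libraries were lowest when untreated and with ACs, and the 2 genes had a Pearson r of 0.96 over the 18 libraries. Snx3 (chromosome 10 from 42502030 to 42535381) instead held 145, 126 and 139.9 CPM and 79.1, 136 and 242 CPM in the untreated libraries of the 2 labels, which overlapped. With NACs it held 141, 151 and 82.1 CPM and 152, 122 and 163 CPM. With ACs, Snx3 was at 101, 102 and 89.3 CPM in HDAC3 f/f and at 207, 206 and 228 CPM in HDAC3-/-, all higher. Its r with the mean profile of the other 9 was 0.08, against 0.65 (Snx10) to 0.96 (Snx5) among the others.

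**Figure D3:**
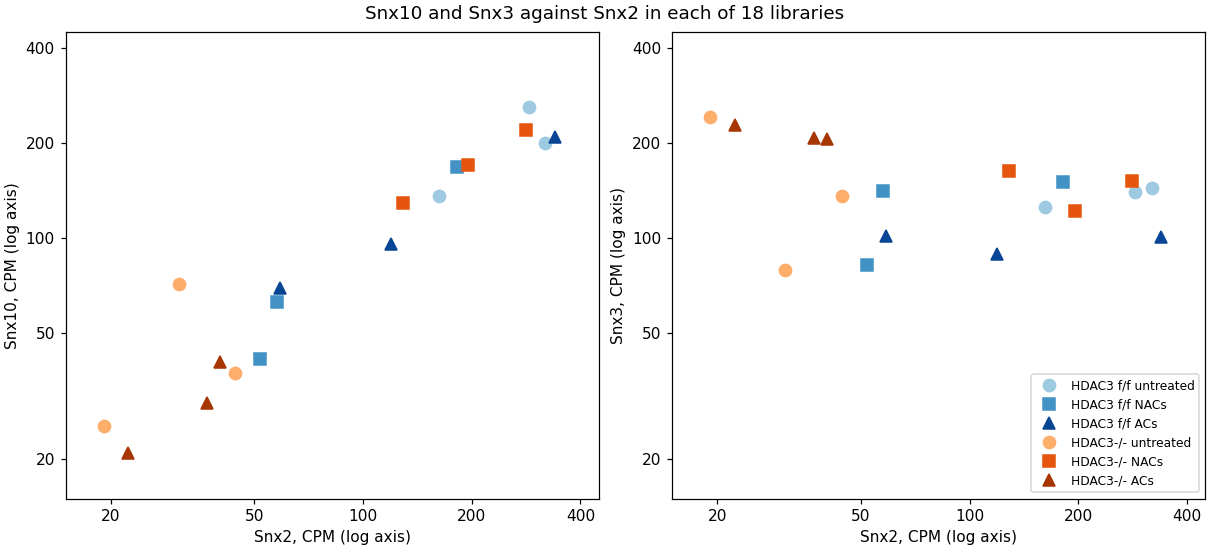
Snx10 (left) and Snx3 (right) against Snx2 in each of the 18 libraries, in CPM on log axes, coloured and shaped by group. Snx10 follows Snx2 from the lowest HDAC3-/- libraries to the highest HDAC3 f/f libraries, and Snx3 does not.

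Snx4 (chromosome 16 from 33251456 to 33299562), of the recycling route, held 41.7, 31.2 and 42.1 CPM in untreated HDAC3 f/f libraries and 4.27, 17.1 and 16.3 CPM in untreated HDAC3-/- libraries. With NACs it held 16.3, 31.1 and 14.9 CPM and 61.3, 32.0 and 45.5 CPM. The genotypes did not overlap in either condition and stood in opposite order. With ACs it held 35.5, 25.3 and 31.6 CPM and 57.2, 43.6 and 18.2 CPM, and HDAC3-/- replicate 3 was below every HDAC3 f/f library. Snx18 (chromosome 13 from 113592180 to 113618564), the SH3 member, was at 26.2, 24 and 16.9 CPM and 10.0, 11.1 and 12.8 CPM untreated, and at 11.8, 19.7 and 9.94 CPM and 25.7, 17.9 and 20.7 CPM with NACs. It was at 14.8, 21.7 and 20.9 CPM and 37.3, 39.0 and 13.0 CPM with ACs, where the same HDAC3-/- replicate 3 was again the lowest library.

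Snx13 and Snx14, of the RGS branch, were the least abundant. Snx13 (chromosome 12 from 35047189 to 35147469) held 13.8, 16.7 and 12.2 CPM in untreated HDAC3 f/f and 2.51, 6.64 and 1.89 CPM in untreated HDAC3-/- libraries, of which replicate 1, the shallowest library, rested on 10 counts. With NACs it held 5.15, 10.7 and 4.72 CPM and 14.2, 11.7 and 15.1 CPM, and with ACs 9.64, 6.27 and 10.8 CPM and 3.31, 6.31 and 4.66 CPM. The labels overlapped for Snx13 only with ACs. Snx14 (chromosome 9 from 88376750 to 88438958) held 13.5, 14.4 and 16.9 CPM and 7.03, 7.10 and 3.78 CPM untreated, 5.04, 14.1 and 5.65 CPM and 17.6, 14.0 and 15.1 CPM with NACs, and 9.22, 6.71 and 11.7 CPM and 14.5, 12.5 and 6.35 CPM with ACs. Its labels did not overlap when untreated and overlapped with NACs and with ACs. Snx14 shares 545 bases of annotated exon with the gene Gm20537 on the same strand, and Snx5 shares 206 with Mgme1 on the opposite strand, and how reads on these bases were counted could not be told.

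Untreated macrophages were compared first by genotype label. Of the 10 sorting nexins, 9 were lower in libraries labelled HDAC3-/-, and 8 of these had all 3 libraries below all 3 of HDAC3 f/f, which 22.7% of all 12101 tested genes also had. The largest difference was that of Snx2, with a log2 fold change of −3.09 ± 0.49 (SE). Snx10 differed by −2.24 ± 0.47, Snx6 by −2.01 ± 0.41, Snx13 by −1.97 ± 0.55 and Snx5 by −1.91 ± 0.40. Snx4 differed by −1.66 ± 0.51, Snx14 by −1.41 ± 0.44, Snx1 by −1.17 ± 0.54 and Snx18 by −1.09 ± 0.41, and Snx3 by 0.04 ± 0.44, which is no more than its error. The median of the 10 was −1.79, against 0.06 over all genes tested. A total of 5 of the 10 passed the threshold of 0.05 on the adjusted p of edgeR's quasi-likelihood test as lower, beside 8.56% of all genes.

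These untreated differences depended on the fit. Among untreated libraries the GC contrast did not overlap between the labels, so what the offset takes out cannot be told apart from a difference between labels. With the GC-length offset, Snx2 differed by −1.90 ± 0.38 (SE), Snx10 by −1.26 ± 0.39, Snx5 by −1.04 ± 0.32, Snx6 by −0.87 ± 0.32, Snx13 by −0.67 ± 0.46, Snx4 by −0.52 ± 0.50 and Snx14 by −0.39 ± 0.34, Snx3 turned to −0.37 ± 0.38, and 0 of the 10 passed the threshold, as did 0 of all genes. Snx1 and Snx18, of higher GC content, differed by −1.35 ± 0.46 and −1.47 ± 0.36 with it. The count of 5 was 8 without HDAC3-/- untreated replicate 1, the shallowest library, 2 without HDAC3-/- replicate 2, 1 when HDAC3 f/f replicate 1 was left out, and 0 on leaving out replicate 2 or 3 of HDAC3 f/f or replicate 3 of HDAC3-/-. Of all genes, 46.3%, 1.98%, 0.608% and 0% passed in the same fits. Over all genes, 368 passed as higher and 1036 as lower with TMM scaling, 749 and 888 with the size factors of DESeq2, and 54 and 2351 with library totals alone.

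**Figure D4:**
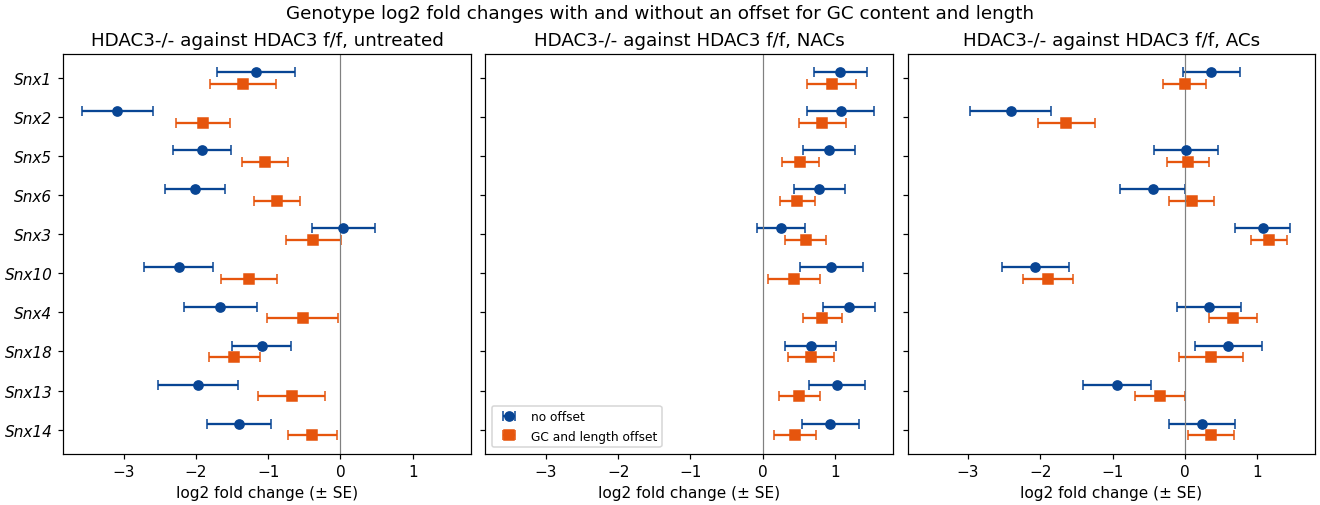
log2 fold changes of HDAC3-/- against HDAC3 f/f labels (horizontal axis, with SE bars) of the 10 sorting nexins, untreated, with NACs and with ACs, without (circles) and with (squares) the GC-length offset. In the untreated panel Snx2, Snx5, Snx6, Snx10, Snx13, Snx4 and Snx14 move towards 0 with the offset, while Snx2, Snx10 and Snx3 with ACs move less.

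With NACs the direction was the opposite. All 10 sorting nexins had a positive log2 fold change of HDAC3-/- against HDAC3 f/f, from 0.26 ± 0.33 (SE) for Snx3 to 1.19 ± 0.36 for Snx4, with a median of 0.94 against −0.0031 over all genes. Snx4, Snx5 (0.92 ± 0.36) and Snx13 (1.02 ± 0.39) had all HDAC3-/- libraries above all HDAC3 f/f libraries, which 15.1% of the 11923 tested genes had. Snx2 and Snx1 stood at 1.08 ± 0.46 and 1.08 ± 0.37. By edgeR's adjusted p, 0 of the 10 passed the threshold, beside 0.864% of all genes. At an unadjusted p under 0.05 there were 8, where 24.2% of all genes were, and by the Wald test of DESeq2 and by limma-voom 0. Without HDAC3 f/f NACs replicate 2, in which each of the 10 had its highest level of the 3 libraries of the group, 9 of the 10 passed, beside 24.6% of all genes in that fit. Without any filter on low counts 3 did, beside 2.28%. With the GC-length offset all 10 were still positive, with Snx10 at 0.43 ± 0.36, Snx14 at 0.45 ± 0.29, Snx13 at 0.51 ± 0.29, Snx5 at 0.52 ± 0.25 and Snx4 at 0.82 ± 0.27, and Snx3 at 0.60 ± 0.28.

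With ACs, Snx2 and Snx10 were lower in HDAC3-/- libraries, with log2 fold changes of −2.41 ± 0.56 (SE) and −2.07 ± 0.47, and their libraries did not overlap. This is 5.33-fold and 4.19-fold lower. Snx3 was higher by 1.08 ± 0.38, also without overlap. The 7 others lay between −0.94 ± 0.47 (Snx13) and 0.60 ± 0.46 (Snx18), with overlapping groups, and the median of the 10 was 0.13. All libraries lower held for 2 of the 10 and for 13.5% of the 12304 tested genes, and all libraries higher for 1 and for 14.8%. Of the 10, 2 passed the threshold as lower, beside 2.96% of all genes. With the GC-length offset the differences were −1.64 ± 0.40 for Snx2, −1.90 ± 0.35 for Snx10 and 1.16 ± 0.25 for Snx3, and 3 of the 10 passed, beside 9.7% of all genes. Snx13 was then at −0.35 ± 0.35, and Snx1 and Snx6 turned from 0.37 ± 0.40 and −0.45 ± 0.45 to −0.01 ± 0.30 and 0.09 ± 0.31. Without HDAC3 f/f ACs replicate 1, in which Snx2 and Snx10 were highest, without HDAC3-/- ACs replicate 1 or without HDAC3-/- ACs replicate 3, the count was 0, beside 2.91%, 0% and 2.68% of all genes. The first of these also brought the log2 fold change of Snx2 to −1.43 ± 0.47 and that of Snx10 to −1.45 ± 0.46.

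The treatments were then compared within each genotype label. These comparisons share libraries with those above and with each other, so their values are set side by side. In HDAC3-/- libraries all 10 sorting nexins were higher with NACs than untreated, with a median log2 fold change of 1.75 against −0.03 over all genes. Snx2 was higher by 2.86 ± 0.45 (SE), Snx10 by 2.11 ± 0.45, Snx4 by 2.06 ± 0.52, Snx13 by 2.04 ± 0.52, Snx5 by 1.79 ± 0.30, Snx6 by 1.70 ± 0.36 and Snx14 by 1.57 ± 0.41. Snx18 was at 1.10 ± 0.35, Snx1 at 1.35 ± 0.56 and Snx3 at 0.13 ± 0.41. The groups of 8 did not overlap (all but Snx1 and Snx3), as for 21.8% of the 12143 tested genes in that direction. Of the 10, 7 passed the threshold as higher, beside 6.2% of all genes. With the GC-length offset, with a scaling by the size factors of DESeq2, or without any 1 library except HDAC3-/- untreated replicate 1, 0 passed, and without that library 8 did, beside 35.5% of all genes. The log2 fold change with the offset was 1.76 ± 0.37 for Snx2, 1.17 ± 0.33 for Snx10, 0.94 ± 0.52 for Snx4, 0.90 ± 0.25 for Snx5, 0.82 ± 0.45 for Snx13, 0.67 ± 0.28 for Snx6 and 0.55 ± 0.31 for Snx14.

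In HDAC3 f/f libraries all 10 were instead lower with NACs than untreated, from −1.44 ± 0.42 (SE, Snx2) to −0.20 ± 0.39 (Snx3), with a median of −1.07 against −0.10 over all genes. Snx4, Snx5, Snx6 and Snx13 had all libraries lower, as did 16% of the 11912 tested genes. Snx6 was at −1.19 ± 0.38. Of the 10, 2 passed the threshold, beside 4.33% of all genes as lower. Without HDAC3 f/f NACs replicate 2 the count was 9, beside 34.2% of all genes, and without any other 1 of the 6 libraries, or with the GC-length offset, 0. With that offset Snx2 was at −0.97 ± 0.34, Snx6 at −0.68 ± 0.27, Snx10 at −0.53 ± 0.40, Snx4 at −0.42 ± 0.26, Snx13 at −0.34 ± 0.30 and Snx14 at −0.30 ± 0.31, while Snx3 was at −0.56 ± 0.30.

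ACs were compared with NACs, whose K562 cells had not been made apoptotic by UV-B light. Uptake was not measured in these libraries. In HDAC3-/- libraries, Snx2, Snx10 and Snx13 were lower with ACs, with log2 fold changes of −2.59 ± 0.41 (SE), −2.48 ± 0.40 and −1.51 ± 0.42 and no overlap, which 14.8% of the 12244 tested genes had in that direction. Snx3 was higher by 0.56 ± 0.37, also with no overlap, as for 14.5% of genes. The other 6 lay between −0.54 ± 0.39 (Snx6) and 0.49 ± 0.42 (Snx18), and the median was −0.44. Of the 10, 3 passed the threshold, beside 4.73% of all genes as lower, and with the offset 2 did, beside 5.19% of all genes in either direction. With the offset Snx2 and Snx10 were at −1.82 ± 0.31 and −2.23 ± 0.28. Snx13 was then at −0.73 ± 0.31, and Snx4 and Snx6 turned from −0.21 ± 0.42 and −0.54 ± 0.39 to 0.29 ± 0.34 and 0.08 ± 0.29. Leaving out HDAC3-/- ACs replicate 1 left 0, as it did of all genes, and leaving out each other library left 2 or 3, beside 2.4% to 23.9% of all genes. In HDAC3 f/f libraries the same comparison gave log2 fold changes from −0.32 ± 0.34 (Snx3) to 0.87 ± 0.62 (Snx2), with overlapping groups for all 10. There, 0 of the 10 passed by edgeR, as did 0% of the 11844 genes, 0 had an unadjusted p under 0.05, and 0 passed by DESeq2 or limma-voom.

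Against untreated cells, ACs went with lower levels of all 10 in HDAC3 f/f libraries, from −0.78 ± 0.31 (SE, Snx14) to −0.33 ± 0.31 (Snx18), median −0.63 against −0.11 over all genes. Snx3, Snx13 and Snx14 were the 3 that did not overlap there, and 8.32% of the 12199 tested genes had all libraries lower. In HDAC3-/- libraries 9 of 10 were higher with ACs than untreated, with a median of 1.05 against 0.10. Snx4 (1.81 ± 0.59), Snx18 (1.55 ± 0.54) and Snx5 (1.35 ± 0.49) did not overlap, as for 9.55% of the 12136 tested genes. Snx2 stood at 0.22 ± 0.51 and Snx10 at −0.43 ± 0.52. By edgeR's adjusted p 0 of the 10 passed in either genotype, nor did any gene (0% and 0%). Unadjusted p under 0.05 was reached by 2 and 4 of the 10, beside 12.7% and 14.5% of all genes, and 0 passed by DESeq2 or limma-voom. The GC-length offset turned Snx4 to 0.04 ± 0.21 in HDAC3 f/f and left Snx6 at −0.21 ± 0.24 and Snx13 at −0.22 ± 0.23 there. In HDAC3-/- it turned Snx2 to −0.06 ± 0.38 and left Snx5 at 0.66 ± 0.35, Snx14 at 0.38 ± 0.39 and Snx4 at 1.24 ± 0.56, with Snx10 at −1.05 ± 0.37.

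**Figure D5:**
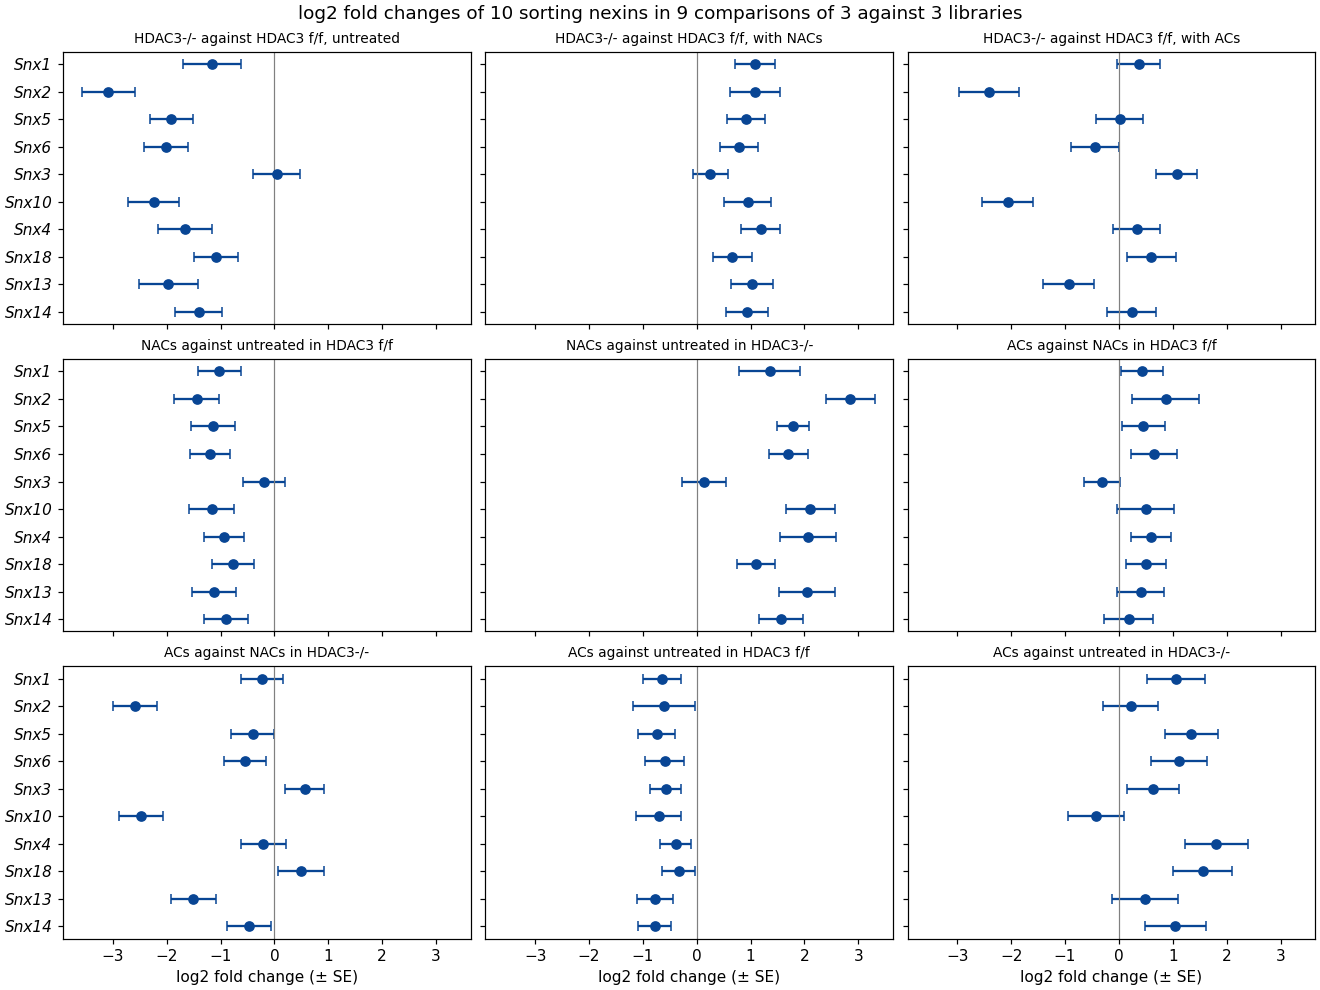
log2 fold changes (horizontal axis, with SE bars) of the 10 sorting nexins in the 9 comparisons of 3 against 3 libraries. Untreated HDAC3-/- libraries show 9 of 10 lower and HDAC3-/- libraries with NACs all 10 higher than HDAC3 f/f, and with ACs Snx2 and Snx10 stand lowest and Snx3 highest.

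The genotype difference with ACs was set against that with NACs as an interaction. It was −3.44 ± 0.82 (SE, log2) for Snx2, −2.96 ± 0.69 for Snx10, −1.90 ± 0.58 for Snx13 and 0.91 ± 0.46 for Snx3, and the median of the 10 was −0.82. By edgeR 0 of the 10 passed, beside 0.0765% of the 13076 tested genes. At an unadjusted p under 0.05 there were 3, 3 passed by the Wald test of DESeq2 and 0 by limma-voom. With the offset the values were −2.52 ± 0.60 for Snx2, −2.40 ± 0.55 for Snx10, −0.91 ± 0.43 for Snx13, 0.57 ± 0.38 for Snx3, −0.43 ± 0.40 for Snx6 (from −1.18 ± 0.58) and −0.20 ± 0.45 for Snx4 (from −0.80 ± 0.58), and 2 passed. With 1 library left out 2 or 3 did in 3 of 12 fits: without HDAC3 f/f NACs replicate 2 (3), HDAC3 f/f ACs replicate 2 (2) and HDAC3-/- ACs replicate 2 (3). Of all genes, 20% had such an unadjusted p, 5.8% passed by DESeq2, 1.87% with the offset and 5.63%, 1.64% and 6.14% in those 3 fits. Set against the untreated cells, the genotype difference with ACs was more positive for 9 of the 10 and near 0 for Snx10, with a median over the 10 of 1.5 and the largest value for Snx4 (1.94 ± 0.68). There 0 of the 10 passed by edgeR, beside 0% of the 13225 genes, with 6 at an unadjusted p under 0.05, 2 by DESeq2 and 0 by limma-voom, beside 24.1%, 9.26% and 0% of all genes. Snx10 stood at 0.11 ± 0.68 and at −0.60 ± 0.53 with the offset, where Snx4 was at 1.25 ± 0.65, Snx5 at 1.15 ± 0.43 (from 1.87 ± 0.60), Snx14 at 0.80 ± 0.43 (from 1.59 ± 0.60), Snx13 at 0.34 ± 0.58 (from 1.0 ± 0.67) and Snx3 at 1.57 ± 0.46 (from 0.97 ± 0.56). Snx10 changed sign in 7 of 22 alternatives. Without HDAC3-/- ACs replicate 3 the count was 3, beside 8.11% of all genes.

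The other sorting nexins did not share one direction. Of 20 listed, 19 were tested and Snx31 was too low. In untreated cells 12 of the 19 were higher and 7 lower in HDAC3-/- libraries, with a median log2 fold change of 0.45. By edgeR 0 passed, with 7 at an unadjusted p under 0.05, 5 by DESeq2 and 3 by limma-voom. Of all genes, 11.6% passed by edgeR, 37.2% had such an unadjusted p, and 27.1% and 18.8% passed by the other tools. With NACs 7 were higher and 12 lower (median −0.21), and with ACs 10 and 9 (median 0.03). Snx15, a PX protein with a MIT domain, was higher with ACs in HDAC3-/- libraries (log2 fold change 1.57 ± 0.43, adjusted p = 0.0472, edgeR), at 26.9 ± 4.67 against 8.70 ± 2.33 CPM (SD, n = 3 each), and was 1.87 (adjusted p = 0.00965) with the offset. Snx7 was higher with NACs than untreated in HDAC3-/- (1.53 ± 0.39, adjusted p = 0.0484, edgeR), and Snx32, a relative of SNX5 and SNX6, was higher with NACs than untreated in HDAC3 f/f (1.17 ± 0.40, adjusted p = 0.0491). With the offset these were 0.33 (adjusted p = 0.657) and 0.73 (adjusted p = 0.216).

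Retromer is the complex that SNX3 and other sorting nexins recruit. In untreated cells its subunits Vps35, Vps26a and Vps29 were lower in HDAC3-/- libraries. The log2 fold changes (± SE, edgeR) were −2.79 ± 0.48 for Vps35 and −2.33 ± 0.43 for Vps26a, both with an adjusted p = 0.0183, and −1.88 ± 0.40 for Vps29 (adjusted p = 0.0223). Lower too was Dnajc13, a J-domain protein of early endosomes (−1.53 ± 0.45, adjusted p = 0.0457). Of the 9 genes listed, 4 passed as lower, beside the 8.56% of all genes, and 0 as higher. The list was split, with 5 lower and 4 higher and a median of −0.93, and Vps26b, a paralogue of Vps26a, was at 0.97 ± 0.50, adjusted p = 0.175. All 4 called genes were higher with NACs than untreated in HDAC3-/- libraries, namely Vps35 (2.70 ± 0.44, adjusted p = 0.0353), Vps26a (2.29 ± 0.37, adjusted p = 0.0353), Vps29 (1.45 ± 0.35, adjusted p = 0.0434) and Dnajc13 (1.77 ± 0.41, adjusted p = 0.0411). In HDAC3 f/f libraries, Vps35 (−1.45 ± 0.42, adjusted p = 0.0309) and Dnajc13 (−1.12 ± 0.38, adjusted p = 0.0491) were lower with NACs than untreated. Vps29 was lower in HDAC3-/- libraries with ACs than in HDAC3 f/f libraries with ACs (−1.89 ± 0.44, adjusted p = 0.0303) and than in HDAC3-/- libraries with NACs (−1.93 ± 0.39, adjusted p = 0.00339), where Vps35 was lower too (−1.74 ± 0.41, adjusted p = 0.0119). With the GC-length offset, Vps29 was −1.37 (adjusted p = 0.0206) between genotypes with ACs and −1.28 (adjusted p = 0.0337) against NACs in HDAC3-/-. Vps35 with it was −0.76 (adjusted p = 0.23, edgeR) for ACs against NACs in HDAC3-/-, and its untreated difference was −1.56 (adjusted p = 0.107).

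The actin-nucleating WASH complex, which works on the same endosomes, had 5 listed subunits. Washc2 was higher with NACs than untreated in HDAC3-/- (1.5 ± 0.36, adjusted p = 0.043, edgeR) and lower in HDAC3 f/f (−1.29 ± 0.39, adjusted p = 0.0332), where Washc4 was lower too (−1.27 ± 0.38, adjusted p = 0.0332). No subunit passed between genotypes. In the Commander complex, which retrieves other cargo with SNX17, 5 of 15 genes passed as lower in untreated HDAC3-/- libraries: Dennd10 (−2.69, adjusted p = 0.0183), Commd10 (−2.44, adjusted p = 0.0183), Commd6 (−1.92, adjusted p = 0.0267), Commd8 (−1.61, adjusted p = 0.0344) and Commd3 (−1.43, adjusted p = 0.0389), in log2, beside the same 8.56% of all genes. Of the 15, 9 were on the lower side and 6 were on the higher side, 4 of them with all libraries higher, with Vps35l at 1.37, adjusted p = 0.0579 and Ccdc22 at 1.34, adjusted p = 0.0735. With NACs against untreated in HDAC3-/-, 5 passed as higher, beside 6.2% of all genes: Dennd10 (2.58, adjusted p = 0.0353), Commd10 (2.31, adjusted p = 0.0353), Commd6 (1.80, adjusted p = 0.0368), Commd8 (1.59, adjusted p = 0.0405) and Commd1 (1.40, adjusted p = 0.0454). In HDAC3 f/f 3 passed as lower, beside 4.33% of all genes: Dennd10 (−1.49, adjusted p = 0.0283), Commd10 (−1.31, adjusted p = 0.0322) and Ccdc93 (−1.16, adjusted p = 0.0467). With ACs, Commd6 was lower in HDAC3-/- than in HDAC3 f/f (−1.74, adjusted p = 0.0472). Against NACs in HDAC3-/-, Commd6 (−2.65, adjusted p = 0.000468), Dennd10 (−1.81, adjusted p = 0.00889) and Commd10 (−1.53, adjusted p = 0.019) were lower, beside 4.73% of all genes, and Vps35l was higher (1.29, adjusted p = 0.0404). With the offset Commd6 was at −1.89 (adjusted p = 0.0142, edgeR) in this last comparison. Dennd10 was then at −0.83 (adjusted p = 0.118), Commd10 at −0.38 (adjusted p = 0.566) and Vps35l at 0.79 (adjusted p = 0.151). Between genotypes with ACs, Commd6 was at −0.97 (adjusted p = 0.0711) with it. Of the calls of this complex between untreated genotypes and for NACs against untreated, 0 passed with the offset.

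The enzymes that make and remove the phosphoinositides bound by PX domains were also measured. Mtmr2, a phosphatase of phosphatidylinositol 3-phosphate, was lower in untreated HDAC3-/- libraries (−1.87, adjusted p = 0.0288, edgeR), higher with NACs than untreated in HDAC3-/- (1.92, adjusted p = 0.0405) and lower in HDAC3 f/f (−1.40, adjusted p = 0.0261). Pikfyve, a phosphoinositide kinase, was lower in untreated HDAC3-/- (−1.75, adjusted p = 0.0335) and with NACs in HDAC3 f/f (−1.26, adjusted p = 0.0379), while its scaffold Vac14 was higher in untreated HDAC3-/- (1.54, adjusted p = 0.0479). Pik3c3, the class III phosphatidylinositol 3-kinase, was higher with NACs than untreated in HDAC3-/- (1.67, adjusted p = 0.0454), its regulatory subunit Pik3r4 was higher in HDAC3-/- with ACs (1.78, adjusted p = 0.0411), and Mtm1 was lower with ACs than NACs in HDAC3-/- (−2.05, adjusted p = 0.0223). Of the early endosome genes, Hgs, an ESCRT subunit, was higher in untreated HDAC3-/- (1.87, adjusted p = 0.0324) and with NACs in HDAC3 f/f (1.34, adjusted p = 0.0304). Its partner Stam (−1.46, adjusted p = 0.0456) and the adaptor Appl1 (−1.82, adjusted p = 0.0402) were lower in untreated HDAC3-/-. With the offset Stam was at 0.0056 (adjusted p = 0.997), its direction turned, Appl1 at −0.55 (adjusted p = 0.498) and Hgs at 0.95 (adjusted p = 0.171). Stam (1.54, adjusted p = 0.0486) and the early endosome GTPase Rab5a (1.97, adjusted p = 0.0494) were higher with NACs than untreated in HDAC3-/-, and Rab5a was lower with ACs than NACs there (−1.40, adjusted p = 0.029). Rab4a, a GTPase of rapid recycling, was higher with NACs than untreated in HDAC3 f/f (2.13, adjusted p = 0.0304).

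Among 8 cargo receptors, Sort1, the sorting receptor sortilin, was higher in HDAC3-/- libraries with ACs (1.80 ± 0.45, adjusted p = 0.0363, edgeR) and higher with ACs than NACs in HDAC3-/- (1.54 ± 0.42, adjusted p = 0.0251), at 32.6 ± 16.0 CPM with ACs against 8.95 ± 1.76 CPM (SD, n = 3) in HDAC3 f/f. With the offset the first was 1.34 (adjusted p = 0.0267) and the second 0.98 (adjusted p = 0.0811, edgeR). Igf2r, the mannose 6-phosphate receptor carried by SNX1, SNX2, SNX5 and SNX6, was lower with NACs than untreated in HDAC3 f/f (−1.15 ± 0.38, adjusted p = 0.0446). It was at −1.05 (adjusted p = 0.143, edgeR) with the offset. Of the 78 pathway genes outside the 10, 15 passed between genotypes untreated, 0 with NACs and 5 with ACs, where 11.6%, 0.864% and 3.75% of all tested genes did. With the offset, where 0%, 0.00839% and 9.7% of all genes passed, they were 0, 0 and 7. With ACs the count was 0 without HDAC3-/- replicate 1, 13 without HDAC3-/- replicate 2, 1 without HDAC3 f/f replicate 1 and 2 without replicate 3 of either label, beside 0%, 13.3%, 2.91%, and 2.39% (HDAC3 f/f) and 2.68% (HDAC3-/-) of all genes. In untreated cells it was 2 on leaving out HDAC3 f/f replicate 1, 5 on leaving out HDAC3-/- replicate 2, and 0 on leaving out replicate 2 or 3 of HDAC3 f/f or replicate 3 of HDAC3-/-, beside 0.608%, 1.98% and 0% of all genes. Without HDAC3-/- untreated replicate 1 there were 42, and without HDAC3 f/f NACs replicate 2 there were 39 with NACs. In those 2 fits 46.3% and 24.6% of all genes passed.

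For NACs against untreated, 13 of the 78 pathway genes passed in HDAC3 f/f and 15 in HDAC3-/-, beside 8.52% and 6.54% of all genes, and with the GC-length offset 0 and 0 did. In HDAC3 f/f the count was 44 without NACs replicate 2, 14 without untreated replicate 3, and 0 without any other 1 of the 6 libraries, beside 34.2%, 10.9% and at most 0.375% of all genes. In HDAC3-/- it was 38 without untreated replicate 1 and 0 without any other, beside 35.5% and 0% of all genes. For ACs against NACs in HDAC3-/- 9 passed, beside 7.38% of all genes, and 6 with the offset, beside 5.19%. That count was 0 without ACs replicate 1, 29 without ACs replicate 2, and 3 to 6 without any other 1 library, beside 0%, 23.9% and 2.4% to 4.69% of all genes.

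Outside the family, the genes whose log2 CPM was most like the mean standardised profile of the 10 over the 18 libraries were Golga7 (0.98), Arpc5 (0.97), Eps15 (0.97), Rbmxl1 (0.96) and Gtpbp8 (0.96), with Pearson r in parentheses. Golga7 encodes a palmitoyltransferase subunit of the Golgi, Arpc5 a subunit of the Arp2/3 actin complex, and Eps15 an endocytic adaptor. All 18 points share the depth and GC contrast of their library, so the values of r are a description.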

How the data were processed

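RNA of BMDMs from 18 samples was sequenced after library preparation with the NEBNext Ultra II kit. The authors deposited whole-number read counts per gene, without normalization. Per the submitters' processing notes, Trimmomatic 0.36, STAR 2.5.2b and featureCounts of Subread 1.5.2 were used with GRCm38, and the strand setting is not given in the sources used here. Reads were aligned to the mouse genome only, and reads of human K562 cells in sequence that both species share could still be counted.

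The 10 sorting nexins and all gene lists were chosen with earlier results of these data known. Groups followed the labels, and the replicates come from 3 animals per group according to the study. Genes were filtered with filterByExpr (minimum count 10, minimum total 15), scaled by TMM and tested with edgeR 4.0.16 in R 4.3.3 (robust quasi-likelihood fit on the libraries compared), with Benjamini-Hochberg adjustment over all genes and a threshold of 0.05. Log2 levels used a pseudocount of 1 CPM. Library totals of 4704491 to 26421267 counts set the precision. Outside the 10, pathway genes with an adjusted p under 0.05 were named, at most 5 per list and comparison by the size of the fold change, together with the 5 genes most like the mean profile. Cell type markers with such a value were named for the comparisons between genotypes. Alternatives were scaling by totals or by DESeq2 1.42.0 size factors, its Wald test, limma-voom (limma 3.58.1), other filters, a fit of all 18 libraries together, a GC-length offset (smooth terms of mgcv 1.9.3), the replicate block, and each library left out. The fits were also run on simulated counts. These were drawn without GC bias or shared animals, so they do not bear on how the calls here depend on either.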

Additional observations from a re-analysis of the deposited data

Results flagged for a closer look

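Some genes stood in opposite order between genotype labels when untreated and with NACs, with no overlap of the 3 libraries of each label in either condition. Among the 10 sorting nexins these were Snx4 (−1.66 and 1.19), Snx5 (−1.91 and 0.92) and Snx13 (−1.97 and 1.02), where the values are log2 fold changes of HDAC3-/- against HDAC3 f/f, untreated and with NACs. Among the other genes of the lists they included Ccdc93 (−0.82 and 1.21), Commd1 (−1.34 and 0.71), Commd8 (−1.61 and 0.96), Dennd10 (−2.69 and 1.26), Dnajc13 (−1.53 and 1.21), Mtmr2 (−1.87 and 1.34), Pik3c3 (−1.35 and 1.12), Rab4a (2.11 and −1.54), Rab5a (−1.76 and 1.09), Snx7 (−1.20 and 0.96) and Washc2 (−1.29 and 1.37). Further pathway genes were Rab7 (−0.93 and 1.06), Washc5 (−0.88 and 1.14), Zfyve20 (−0.64 and 0.90), Uvrag (−0.72 and 0.56), Snx20 (1.24 and −0.94), Washc1 (1.02 and −0.76) and Commd5 (0.75 and −0.65). Among the cell type markers they were Mrc1 (−1.50 and 1.13), Cd14 (1.03 and −1.01), Ltf (1.37 and −0.74) and Cd79b (1.42 and −1.46). Rab4a, Snx20, Washc1, Commd5, Cd14, Ltf and Cd79b went the other way from the rest. Of the 13662 genes that passed the filter over all 18 libraries, 12.7% showed such an opposite order, 7.38% in the direction of Snx4, Snx5 and Snx13. The difference between these 2 genotype effects was not tested.

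Between NACs and ACs the same held, with no sorting nexin of the 10 among them, for Dennd10 (1.26 and −1.12), Rab4a (−1.54 and 1.23) and Washc4 (1.12 and −1.33), with NACs first and ACs second. The interaction itself gave Dennd10 −2.32 (adjusted p = 0.07), Rab4a 2.83 (adjusted p = 0.0976) and Washc4 −2.40 (adjusted p = 0.0583) by edgeR. Of all 13662 genes, 2% showed an opposite order here.

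The change with NACs against untreated cells went opposite ways in the labels, again with no overlap, for Snx4 (−0.94 and 2.06), Snx5 (−1.15 and 1.79), Snx6 (−1.19 and 1.70) and Snx13 (−1.12 and 2.04) of the 10, with HDAC3 f/f first and HDAC3-/- second. Outside the 10, genes with such opposite changes included Appl1 (−1.0 and 1.5), Ccdc93 (−1.16 and 0.98), Commd8 (−1.09 and 1.59), Dnajc13 (−1.12 and 1.77), Igf2r (−1.15 and 1.49), Mtmr2 (−1.40 and 1.92), Pikfyve (−1.26 and 1.39), Rab5a (−1.04 and 1.97), Snx32 (1.17 and −0.80), Stam (−0.95 and 1.54) and Washc2 (−1.29 and 1.5). Of all 13662 genes, 15.1% did, 8.56% in the direction of the sorting nexins. This difference was not tested either, and it rests on the same untreated and NACs libraries as the first pattern.

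ACs against NACs went opposite ways in the labels for Rab4a (−1.30 and 1.53), Snx15 (−0.89 and 0.96) and Washc4 (1.04 and −1.37), with HDAC3 f/f first, as for 1.91% of all 13662 genes. The interaction for Snx15 was 1.86 (adjusted p = 0.0624, edgeR), and those of Rab4a and Washc4 are given above. The GC contrast of the libraries moved with the same groups, and its part in these values was not tested beyond the offset reported for each comparison.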

How the results depend on the processing

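Of the log2 fold changes of the 10 sorting nexins under each alternative, 1718 moved by less than their error, 162 by more and 0 changed sign while called. For other named genes 456 kept their call, 453 lost it and 1 changed direction: Stam between untreated genotypes, at 0.0056 under the GC-length offset (adjusted p = 0.997, edgeR). How many of the 10 passed depended on the fit, and the cause was not tested. The share of all genes passing in the same fit is in parentheses. Between untreated genotypes, 5 became 9 with library totals alone (19.9%) and 0 with the GC-length offset, alone or with the replicate block (0%). With NACs, 0 became 3 with no filter (2.28%). For NACs against untreated in HDAC3 f/f, 2 became 0 with library totals, with all 18 libraries in one fit or with the GC-length offset (alone or with the replicate block), where at most 0.302% passed, 1 with limma-voom (2.79%) or no filter (1.74%), 5 with at least 10 counts in every library (14.5%) and 6 with the replicate block (15%). In HDAC3-/-, 7 became 0 with the size factors of DESeq2, the replicate block, the GC-length offset, or both (0% in each). The interaction of genotype with ACs or NACs went from 0 to 3 with the Wald test of DESeq2 (5.8%) and to 2 with no filter (1.92%), the replicate block (1.16%), the GC-length offset (1.87%), or both (1.13%), and that with ACs or untreated from 0 to 2 with the Wald test (9.26%). Leaving out 1 library gave 0 to 2 (genotype with ACs), 0 to 9 (with NACs), 0 to 8 (untreated), 0 to 3 (ACs against NACs in HDAC3-/-), 0 to 9 and 0 to 8 (NACs against untreated in HDAC3 f/f and HDAC3-/-), 0 to 3 (both interactions) and 0 to 0 (ACs against untreated, and ACs against NACs in HDAC3 f/f). Scaling moved the median of all genes between untreated genotypes from 0.06 to 0.19 (size factors) and −0.42 (totals), and the median of the 10 less that of all genes was −1.85, −1.87 and −1.86. Samples with the same replicate number had deviations with r from −0.49 to 0.56, and in no comparison were all 3 above 0.1. The numbers were not taken to pair samples in the main fits. Whether treatments of a label share animals is not stated, and these r cannot decide it, as the GC contrast of each library also enters them. The shallowest library, with 4704491 counts, limits Snx13 and Snx4 most, at 10 and 17 counts.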
